A study of Mus musculus with 6 samples.

Results

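Transcripts of 40 genes that work in DNA replication and cell division were examined in macrophages sorted from the mouse mammary gland. The genes were chosen by name, for their known roles, and all 40 symbols were found among the 24061 in the count table. The study sorted CD45+CD11b+F4/80+ cells from the inguinal mammary glands of FVB/N mice into Lyve-1+ and Lyve-1- subsets and sequenced total RNA from both. Lyve-1 is a receptor for hyaluronan that is also found on lymphatic vessels, and the study asked how macrophages that carry it differ from those that do not. Each subset had 3 libraries, and each library was a pool of 4 mice, so the spread between mice within a pool was not measured. Replicate 1 of each subset came from 6-week-old mice and replicates 2 and 3 from 10-week-old mice, with no other treatment or genotype in any group.

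A dividing cell first licenses its replication origins with the MCM helicase, copies its DNA in S phase with the help of the sliding clamp PCNA, and makes the deoxynucleotides it needs with ribonucleotide reductase and thymidylate synthase. Cyclins and their kinases drive the steps, and in mitosis the Aurora and Polo-like kinases, the spindle checkpoint, kinetochore proteins and microtubule motors separate the chromosomes. Many of these genes are switched on together late in the cycle. Tissue-resident macrophages are known to maintain themselves in part by local division.

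Promoter sequence was read from RefSeq (GRCm38.p6) as the 250 bases before the annotated start. A window was given for 32 of the 40 genes, and for 34 starts in all. The CCAAT box (letters CCAAT, on either strand), the site of the NF-Y factor, was found in 29 of the 34 windows (85.3%), compared with 33.8% of the 32851 windows of all genes. The cell cycle homology region (TTTGAA, on either strand), bound by the MuvB core of the DREAM complex, was in 10 of the 34 (29.4%, against 15.99% of all windows). An E2F-type site (TTCCCGC or TTGGCGC, on either strand) was in 9 of the 34 (26.5%, against 5.62%). The windows of *Tyms*, *Ccne1*, *Birc5* and *Nusap1* held none of the 3 motifs. A match of letters is a description of these windows and not a measured binding site. The windows of 5 genes on which the results below turn are given 5′ to 3′ on the strand of the gene, with every match to these motifs in capitals:
Mki67: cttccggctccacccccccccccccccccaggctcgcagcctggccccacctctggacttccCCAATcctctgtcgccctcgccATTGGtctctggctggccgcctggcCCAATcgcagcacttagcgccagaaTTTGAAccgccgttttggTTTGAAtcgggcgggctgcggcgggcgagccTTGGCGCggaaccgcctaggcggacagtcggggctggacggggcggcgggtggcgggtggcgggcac
Top2a: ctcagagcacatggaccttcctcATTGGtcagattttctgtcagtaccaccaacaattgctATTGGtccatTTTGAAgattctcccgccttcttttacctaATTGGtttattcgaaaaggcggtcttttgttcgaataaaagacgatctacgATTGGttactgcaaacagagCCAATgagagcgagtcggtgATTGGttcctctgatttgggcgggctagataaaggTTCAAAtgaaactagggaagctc
Cenpf: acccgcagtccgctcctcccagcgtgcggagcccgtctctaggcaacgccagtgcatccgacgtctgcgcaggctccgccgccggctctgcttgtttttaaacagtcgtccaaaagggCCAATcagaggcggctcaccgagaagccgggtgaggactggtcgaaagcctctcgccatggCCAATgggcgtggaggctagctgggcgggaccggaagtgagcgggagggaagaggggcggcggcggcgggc
Kif23: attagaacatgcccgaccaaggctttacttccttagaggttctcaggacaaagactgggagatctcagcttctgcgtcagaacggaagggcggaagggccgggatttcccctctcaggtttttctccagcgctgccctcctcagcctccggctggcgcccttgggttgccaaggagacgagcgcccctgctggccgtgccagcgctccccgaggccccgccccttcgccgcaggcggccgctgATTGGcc
Tuba1c: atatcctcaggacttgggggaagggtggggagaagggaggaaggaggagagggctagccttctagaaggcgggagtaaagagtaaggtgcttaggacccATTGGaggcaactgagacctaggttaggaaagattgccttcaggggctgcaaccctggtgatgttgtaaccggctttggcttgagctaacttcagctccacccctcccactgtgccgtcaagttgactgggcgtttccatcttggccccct

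These windows lay at chr7:135716380-135716629 (minus strand), chr11:99024190-99024439 (minus strand), chr1:189688087-189688336 (minus strand), chr9:61946800-61947049 (minus strand) and chr15:99029641-99029890 (plus strand). *Mki67* held 3 CCAAT boxes, 2 copies of the cell cycle homology region and 1 E2F-type site. *Top2a* held 6 CCAAT boxes and 2 copies of the homology region. *Cenpf* held 2 CCAAT boxes, and *Kif23* and *Tuba1c* held 1 each. In GENCODE M21 (mm10) the genes themselves span chr7:135689784-135716361, chr11:98992943-99024189, chr1:189640606-189688086, chr9:61915905-61946774 and chr15:99029891-99038110. Of the other genes described most fully, *Pcna* spans chr2:132249162-132253314, *Nusap1* chr2:119618298-119651244 and *Stmn1* chr4:134468320-134473843.

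Library totals ran from 6478007 to 21406839 counts, so that 3 counts, the most that a count of 0 allows, corresponded to between 0.144 and 0.437 CPM (TMM-normalised counts per library of equal size), a limit that covers counting error only. The libraries stood apart in how many genes they detected: between 0.375% and 14.2% of the 13348 genes tested had no count. Olfactory receptor genes, which macrophages do not use, had counts in 652 of 1112 cases in Lyve-1- replicate 3 and in 370 in Lyve-1+ replicate 1, but in 4 to 134 in the other libraries. Macrophage markers summed to between 4705 and 7920 CPM in every library. The summed markers of mammary epithelium were 511, 55.3 and 239 CPM in Lyve-1- replicates 1 to 3 and 129, 157 and 97.9 CPM in the Lyve-1+ replicates. Markers of conventional dendritic cells were higher in every Lyve-1- library (428 to 912 CPM) than in the Lyve-1+ libraries (132 to 387 CPM), fibroblast markers were lower (341 to 561 against 676 to 1633 CPM), and T and NK cell markers overlapped (127 to 197 against 53.7 to 203 CPM). The highest fibroblast sum, 1633 CPM, was that of Lyve-1+ replicate 3, beside 679 and 676 CPM in Lyve-1+ replicates 1 and 2. That library also held the highest sum of neutrophil markers, 233 CPM, against 16.3 to 67.5 CPM in the others. Erythroid markers were near 0, and 4 of the 6 were at 0 in every library. The part of these differences in the results below was not tested.

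Cell cycle transcripts were present in both subsets. Summed over the 40 genes, they made up 2730, 1548 and 1937 CPM in Lyve-1- replicates 1 to 3, and 1670, 1838 and 1168 CPM in Lyve-1+ replicates 1 to 3, so the subsets overlapped. The 6-week Lyve-1- library held the highest sum and was the highest of the 6 for 18 of the 40 genes. Lyve-1+ replicate 3 held the lowest sum and was the lowest, ties counted, for 24. In bulk samples, fewer dividing cells and less RNA per dividing cell cannot be told apart.

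*Mki67*, which encodes the Ki-67 protein that coats mitotic chromosomes, took between 18.4% and 44.4% of the counts of the 40 genes in a library. Per kilobase of exon, the highest mean levels over the 6 libraries were those of *Tuba1c* (63.0 CPM per kb), *Mki67* (58.5), *Pcna* (42.5), *Mcm3* (28.4) and *Mcm4* (16.8). The lowest was that of *Ccne2*, which encodes cyclin E2 (0.650 CPM per kb). Detection was uneven: 13 of the 40 genes had no count in Lyve-1+ replicate 3, 7 had none in Lyve-1- replicate 2, and 2 had none in Lyve-1- replicate 1. Of all genes tested, 13.5%, 11.6% and 14.2% had no count in these libraries. All 40 had counts in the other 3 libraries. The 13 were *Cdc6* and *Cdc45* of the replication group, *Rrm2* and *Tyms*, the cyclins *Ccnb1*, *Ccnb2*, *Ccne1* and *Ccne2*, and the mitotic genes *Aurka*, *Bub1*, *Birc5*, *Kif11* and *Kif20a*. The 2 libraries with the most olfactory receptor counts were among the 3 that detected all 40 genes.

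**Figure D1:**
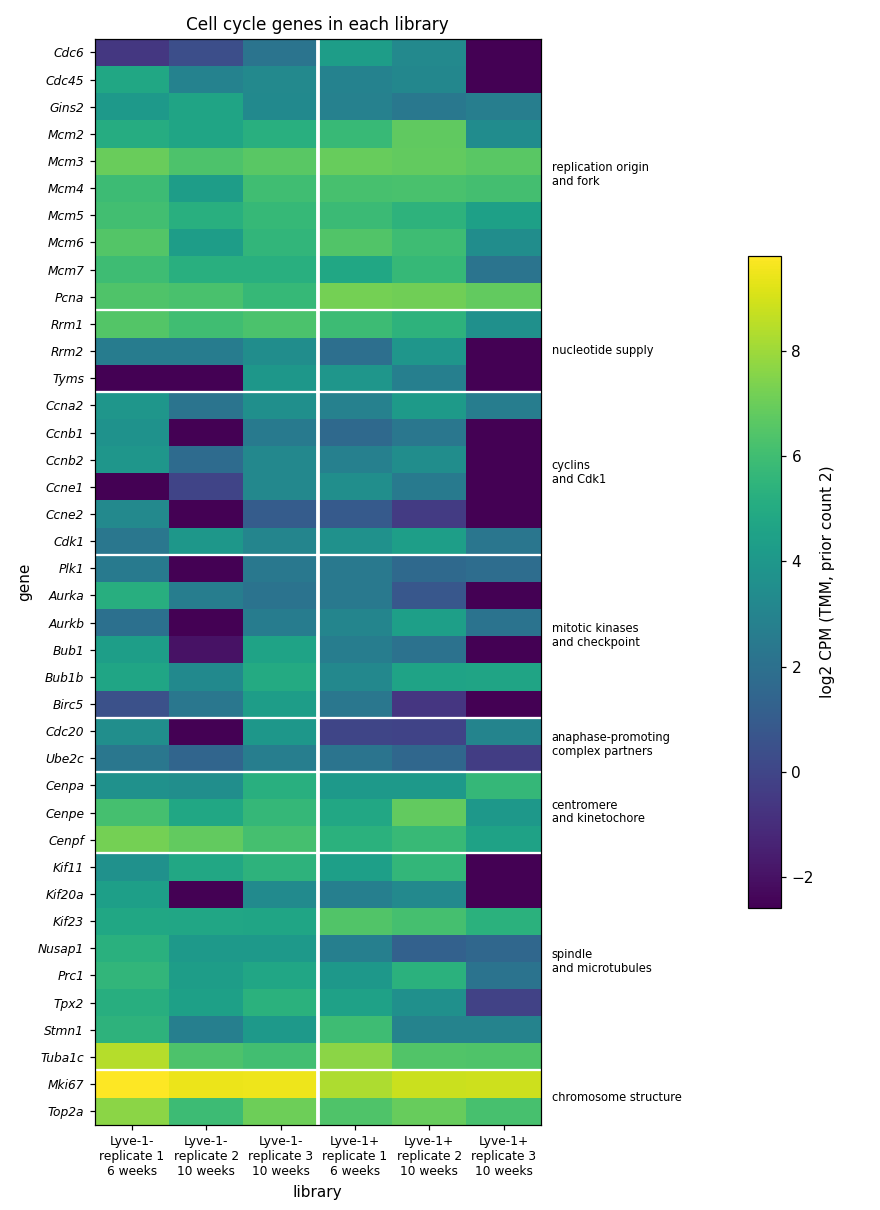
Level of each of the 40 genes (rows, grouped by role) in each of the 6 libraries (columns) as log2 CPM with a prior count of 2. *Mki67* is the brightest row in all libraries, and the darkest cells, at 0 counts, fall mainly in Lyve-1+ replicate 3 (13 genes) and Lyve-1- replicate 2 (7 genes).

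No cell cycle gene passed the test between the subsets. In edgeR's quasi-likelihood test with Benjamini-Hochberg adjustment over 13348 genes, a gene was called if its adjusted p was below 0.01 and its log2 fold change lay between 1 and 10 in size. By that rule 0 of the 40 were called (0.112% of all genes were), and 5 had an unadjusted p under 0.05. DESeq2 called 0 of them as well (0.886% of the genes with an adjusted p). The median log2 fold change of the 40 genes, Lyve-1+ against Lyve-1-, was -0.37, with 16 higher and 24 lower, beside -0.01 over all genes tested. Of the 5 with an unadjusted p under 0.05, 3 were lower in Lyve-1+ (3.5% of all genes were) and 2 were higher (4.2% of all genes were). The Lyve-1+ libraries lay wholly below the Lyve-1- libraries for 5 genes (6.5% of all genes did) and wholly above them for 3 (7.82% of all genes did). Those below were *Mki67*, *Cenpf*, *Nusap1*, *Gins2* and *Rrm1*, and those above were *Pcna*, *Kif23* and *Mcm4*.

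**Figure D2:**
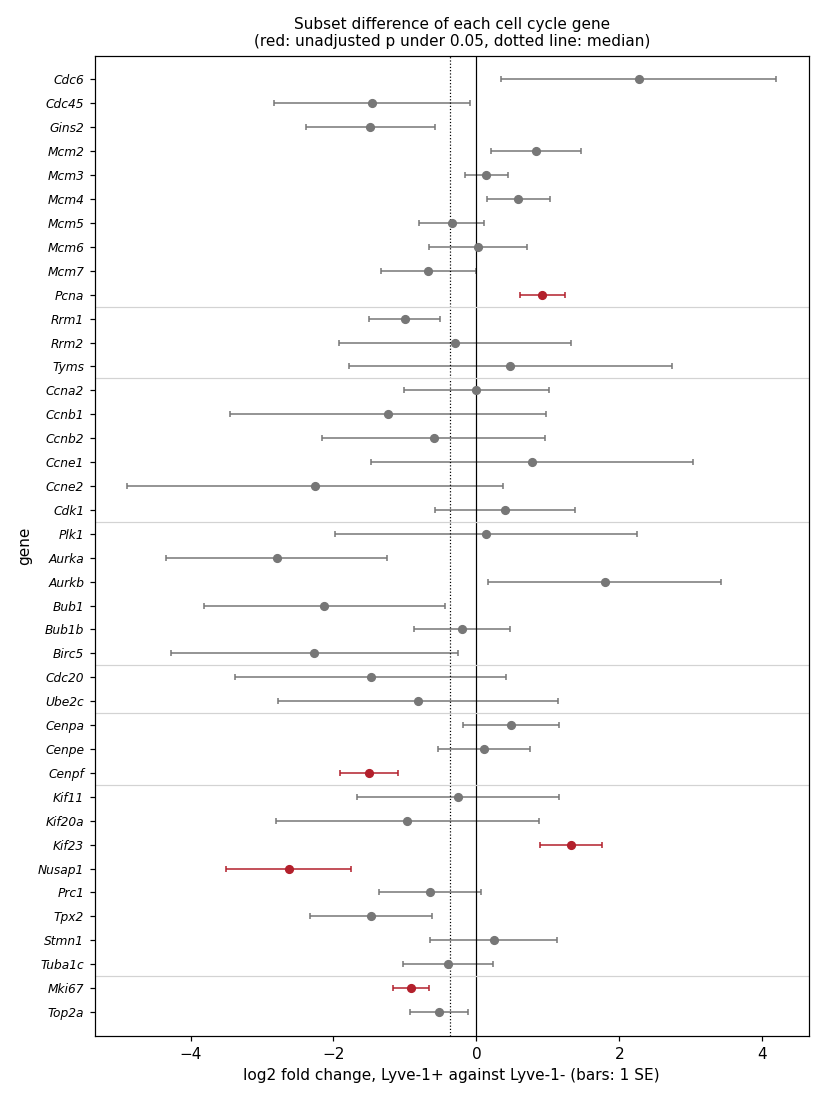
Log2 fold change of each gene in Lyve-1+ against Lyve-1- libraries with its standard error (n = 3 against 3), grouped by role. The dotted line is the median of -0.37, and the 5 genes in red had an unadjusted p under 0.05, of which none passed adjustment.

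The Ki-67 gene and *Top2a* act on the structure of chromosomes. *Mki67* measured 895, 687 and 724 CPM in the Lyve-1- replicates 1 to 3, and 308, 450 and 466 CPM in the Lyve-1+ replicates. Every Lyve-1+ library was below every Lyve-1- library, with means of 408 ± 87.1 and 769 ± 111 CPM (SD, n = 3). The log2 fold change was -0.91 (SE 0.25), with an adjusted p of 0.178 in edgeR and 0.0253 in DESeq2. It lay between -1.05 and -0.63 under the 17 alternatives of processing, among them each library left out. *Top2a*, the topoisomerase that untangles sister chromatids, did not show the same separation: it measured 203, 60.2 and 135 CPM in Lyve-1- and 82.6, 122 and 72.8 CPM in Lyve-1+. Its log2 fold change of -0.52 (SE 0.40, edgeR adjusted p = 0.993) was 0.0030 with the 10-week libraries alone.

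Among the centromere and kinetochore genes, *Cenpf*, a large protein of the outer kinetochore, was the one with libraries apart. It measured 150, 115 and 70.0 CPM in Lyve-1- and 39.8, 54.8 and 23.3 CPM in Lyve-1+. All 3 Lyve-1+ libraries were lower, with a log2 fold change of -1.50 (SE 0.41) and an adjusted p of 0.164 in edgeR and 0.0393 in DESeq2. *Cenpe*, the kinetochore motor, and *Cenpa*, the histone H3 variant of centromeres, overlapped between the subsets. *Cenpe* ranged from 27.3 to 70.9 CPM in Lyve-1- and from 16.1 to 115 CPM in Lyve-1+. *Cenpa* ranged from 11.5 to 37.0 CPM in Lyve-1- and from 16.8 to 51.3 CPM in Lyve-1+.

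The spindle genes held differences in both directions. *Nusap1*, which bundles spindle microtubules near chromosomes, measured 38.8, 16.9 and 16.6 CPM in Lyve-1- and 6.70, 2.20 and 2.77 CPM in Lyve-1+. All Lyve-1+ libraries were lower, with a log2 fold change of -2.63 (SE 0.88) and an adjusted p of 0.317 in edgeR and 0.0394 in DESeq2. *Kif23*, a kinesin of the central spindle that is needed for cytokinesis, went the other way. It measured 27.5, 26.3 and 25.5 CPM in Lyve-1- and 87.0, 71.5 and 39.9 CPM in Lyve-1+, which was higher in all 3 libraries. Its log2 fold change was 1.32 (SE 0.43), with an edgeR adjusted p of 0.298. The other 6 genes of the group overlapped between the subsets. *Prc1*, the partner of central spindle kinesins, ranged from 19.8 to 47.1 CPM in Lyve-1- and from 4.28 to 39.4 CPM in Lyve-1+, and *Kif11*, the motor that pushes spindle poles apart, from 12.8 to 43.0 CPM and from 0 to 49.1 CPM. *Nusap1* shares 172 exonic bases with *Oip5* on the opposite strand and *Prc1* shares 911 with *Rccd1*, and whether counting used the strand is not given in the sources used here.

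The replication genes were spread around 0, with 6 of 10 higher in Lyve-1+ and a median log2 fold change of 0.08. *Pcna* measured 83.7, 75.0 and 52.2 CPM in Lyve-1- and 147, 141 and 112 CPM in Lyve-1+. It was higher in every Lyve-1+ library, with means of 134 ± 18.8 and 70.3 ± 16.3 CPM (SD, n = 3), a log2 fold change of 0.93 (SE 0.31) and an edgeR adjusted p of 0.337. Of its 50-base stretches, 19.1% also occur in the pseudogene *Pcna-ps2*, so reads may have been divided between them. *Mcm4* measured 60.7, 19.9 and 64.0 CPM in Lyve-1- and 73.4, 75.9 and 68.0 CPM in Lyve-1+, again without overlap. *Gins2*, a subunit of the GINS helicase cofactor, was without overlap in the opposite direction, at 16.9, 25.0 and 9.62 CPM in Lyve-1- and 7.01, 4.98 and 6.43 CPM in Lyve-1+, but 2758 of its 4097 exonic bases also lie in *Gse1* on the opposite strand. *Mcm3*, the helicase subunit with the highest level, was nearly level between the subsets, at 80.6 to 125 CPM in Lyve-1- and 99.5 to 123 CPM in Lyve-1+ (log2 fold change 0.14, SE 0.30). *Cdc6*, which loads the helicase, had the largest positive log2 fold change of the set, 2.27, with an SE of 1.92. That value rested on few counts: 6, 13 and 30 in Lyve-1- and 258, 196 and 0 in Lyve-1+.

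Of the genes for nucleotide supply, *Rrm1*, the large subunit of ribonucleotide reductase, measured 90.1, 63.4 and 77.4 CPM in Lyve-1- and 61.0, 42.3 and 12.1 CPM in Lyve-1+. All Lyve-1+ libraries were lower, with a log2 fold change of -0.999 (SE 0.50) and an edgeR adjusted p of 0.698. *Rrm2*, the small subunit whose level follows S phase, was 5.97, 6.04 and 11.1 CPM in Lyve-1- and 3.73, 15.0 and 0 CPM in Lyve-1+. *Tyms*, thymidylate synthase, had no count in 3 of the 6 libraries.

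Cyclins, mitotic kinases and checkpoint genes were low, and none separated the subsets. *Ccnb2* (cyclin B2) was the highest per length of the cyclin group, with 15.1, 3.20 and 8.89 CPM in Lyve-1- and 6.78, 11.1 and 0 CPM in Lyve-1+. *Cdk1*, the kinase that starts mitosis, ranged from 4.87 to 15.5 CPM in Lyve-1- and from 4.66 to 20.3 CPM in Lyve-1+. *Aurka*, the spindle pole kinase, had the largest negative log2 fold change of the set, -2.79 (SE 1.54, edgeR adjusted p = 0.806). It measured 36.5, 6.13 and 4.23 CPM in Lyve-1- and 5.18, 1.53 and 0 CPM in Lyve-1+, so the 6-week Lyve-1- library carried most of the difference. *Aurkb*, the kinase of the chromosomal passenger complex, had a log2 fold change of 1.79 (SE 1.63) from 3.78, 0 and 5.98 CPM in Lyve-1- and 8.23, 21.4 and 4.16 CPM in Lyve-1+. *Birc5* (survivin), a partner in the same complex, had one of -2.27 (SE 2.01), from 1.26, 4.80 and 20.0 CPM in Lyve-1- and 4.88, 0.479 and 0 CPM in Lyve-1+. Leaving out 1 library moved the value for *Birc5* to -0.76 when that was Lyve-1- replicate 3 and to -5.00 when it was Lyve-1+ replicate 1. *Bub1b*, the checkpoint kinase BubR1, lay at 9.59 to 31.6 CPM in Lyve-1- and 9.07 to 24.9 CPM in Lyve-1+, and *Cdc20*, which activates the anaphase-promoting complex, at 0 to 15.3 and 0.767 to 7.94 CPM. *Ccne2* was at 9.41 CPM in the 6-week Lyve-1- library and under 2 CPM in all others.

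**Figure D3:**
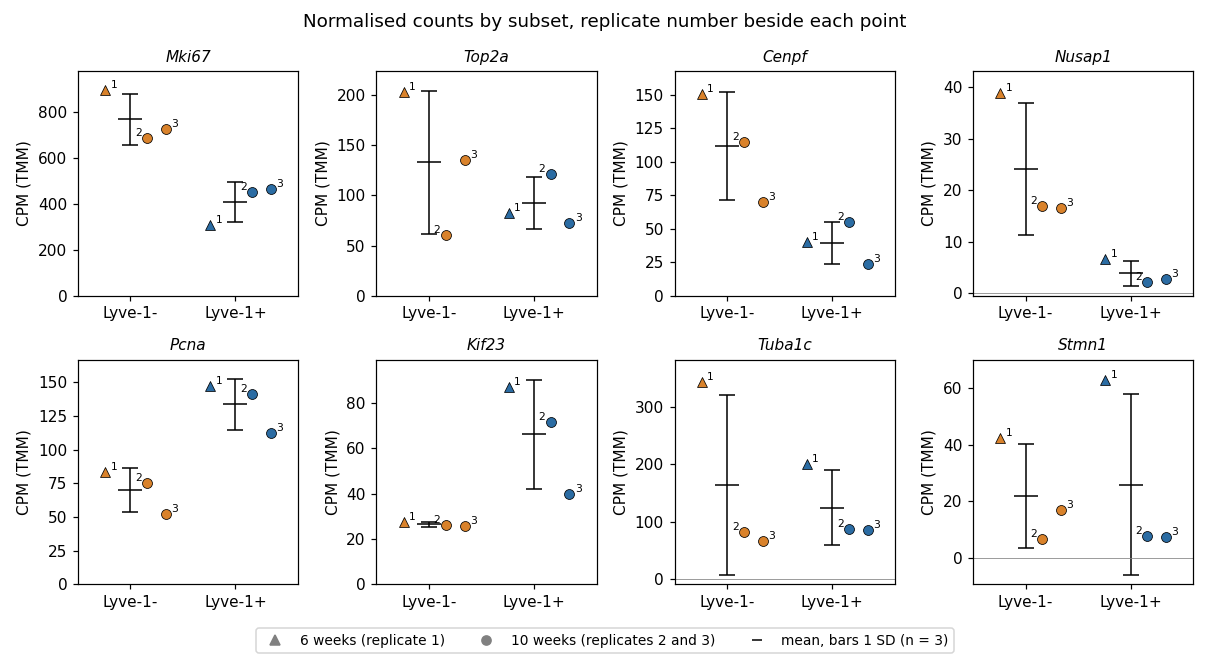
CPM of 8 genes in each library by subset, with the replicate number beside each point, triangles for 6 weeks and circles for 10 weeks, and the mean with 1 SD (n = 3). The subsets do not overlap for *Mki67*, *Cenpf*, *Nusap1*, *Pcna* and *Kif23*, while for *Tuba1c* and *Stmn1* both 6-week libraries lie above the 10-week ones.

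The sign of the subset difference changed with the replicate number. Between the replicate 1 libraries, 13 of the 40 genes were higher in Lyve-1+ and the median difference was -0.67 in log2 CPM. Between the replicate 2 libraries, 32 were higher and the median was 1.00. Between the replicate 3 libraries, 6 were higher and the median was -1.95. Over all genes tested, 57.0%, 54.4% and 43.0% were higher in Lyve-1+ in the 3 comparisons. The median differences over all genes were 0.22, 0.14 and -0.21. At 10 weeks alone, the medians of the cell cycle genes therefore lay on opposite sides of 0 in the 2 comparisons. Each comparison is of a single library against another, matched only by number. Lyve-1- replicate 2 had 7 of the 40 genes at 0 counts and Lyve-1+ replicate 3 had 13, all set to the same floor value. The part of these zeros in the change of sign was not tested.

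**Figure D4:**
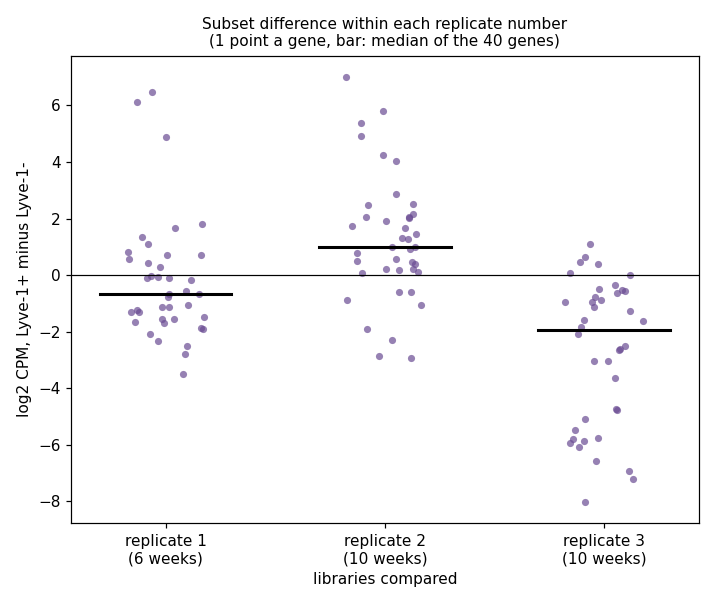
Difference in log2 CPM, Lyve-1+ minus Lyve-1-, for each of the 40 genes within each replicate number, with the median as a bar. The medians are -0.67, 1.00 and -1.95, on both sides of 0. Each column compares single libraries, and genes at 0 counts take a common floor value.

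The second comparison was of age. The mammary ducts of young virgin mice are still growing through the fat pad at the younger age and have nearly filled it at the older. With the subset as a second term, 0 of the 40 genes were called at 10 weeks against 6 weeks in edgeR (0% of all genes were), and 3 had an unadjusted p under 0.05. The median log2 fold change of the 40 genes was -0.37, with 10 higher and 30 lower at 10 weeks, beside 0.07 over all genes. All 3 of those genes were lower at 10 weeks (1.27% of all genes were) and 0 were higher (2.05% of all genes were). All 4 libraries at 10 weeks were below both at 6 weeks for 6 genes (5.21% of all genes): *Mcm3*, *Mcm5*, *Mcm6*, *Plk1*, *Stmn1* and *Tuba1c*. Summed macrophage markers separated by age as well, at 7363 and 7920 CPM at 6 weeks and 4705 to 6869 CPM at 10 weeks. Markers of 2 other cell types separated in the opposite direction. The summed B and plasma cell markers were 3.02 and 10.9 CPM at 6 weeks and 26.3 to 87.2 CPM at 10 weeks. Those of mast cells were 39.3 and 41.5 CPM and 79.5 to 242 CPM. The part of these 3 marker differences in the age differences was not tested. With only 1 library at 6 weeks in each subset, age and the particular pool of mice cannot be told apart within a subset. Whether the 6-week libraries of both subsets came from the same mice is not given in the sources used here.

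*Tuba1c*, an alpha-tubulin gene, had the smallest p. It measured 344 CPM at 6 weeks and 81.4 and 65.5 CPM at 10 weeks in Lyve-1-, and 200 CPM at 6 weeks and 87.8 and 85.0 CPM at 10 weeks in Lyve-1+. Both 6-week libraries were above all 4 libraries at 10 weeks. The log2 fold change was -1.75 (SE 0.32), with an adjusted p of 0.0937 in edgeR. DESeq2 called it (adjusted p = 0.00412), the only cell cycle gene so called (0.0646% of the genes with an adjusted p were). In edgeR it was also called with no filter on low counts (adjusted p = 0.00106). Leaving out Lyve-1- replicate 2 gave an edgeR adjusted p of 0.00389, and leaving out replicate 2 or replicate 3 of Lyve-1+ gave 0.00127 or 0.000462, all of them calls. Leaving out Lyve-1- replicate 1 gave a log2 fold change of -1.19 and an edgeR adjusted p of 1.00. Its transcript shares 52.7% of its 50-base stretches with other genes, most of them with *Tuba1b* (44.9%), so the division of reads between tubulin genes is uncertain.

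*Stmn1* (stathmin), which destabilizes microtubules and is high in dividing cells, followed. It measured 42.3 CPM at 6 weeks and 6.66 and 16.9 CPM at 10 weeks in Lyve-1-, and 62.7 CPM at 6 weeks and 7.67 and 7.56 CPM at 10 weeks in Lyve-1+. Both 6-week libraries were above all 10-week libraries, with a log2 fold change of -2.48 (SE 0.65) and an edgeR adjusted p of 0.559. Of its 50-base stretches, 18.9% also occur elsewhere, most of them in *Gm11223*. *Mcm6*, a helicase subunit, measured 90.8, 19.5 and 46.8 CPM in Lyve-1- replicates 1 to 3 and 86.2, 62.5 and 10.96 CPM in the Lyve-1+ replicates, with a log2 fold change of -1.34 (SE 0.59, edgeR adjusted p = 1.00). *Aurka* had a log2 fold change of -2.75 (SE 1.41). In the other direction, the smallest p values were those of *Cenpa* (0.99, SE 0.73), *Bub1b* (0.47, SE 0.79), *Cdk1* (0.58, SE 1.18) and *Kif11* (0.81, SE 1.86).

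Within each subset, both 10-week libraries were below the 6-week library for 23 of the 40 genes in Lyve-1- (31.3% of all genes) and for 20 in Lyve-1+ (33.3% of all genes). Both were above it for 6 in Lyve-1- (36.2% of all genes) and for 3 in Lyve-1+ (24.1% of all genes). The 2 older libraries of a subset differed from each other, however. Against the 6-week library, 7 of 40 genes were higher in Lyve-1- replicate 2 and 16 in replicate 3, and 19 were higher in Lyve-1+ replicate 2 and 4 in replicate 3. No cell cycle gene was called for age within Lyve-1- or within Lyve-1+ in edgeR (0% of all genes in both). DESeq2 called *Tuba1c* within Lyve-1- (adjusted p = 0.00241), where 0.645% of the genes with an adjusted p were called, from 2 libraries against a single one.

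*Mki67* went opposite ways with age in the subsets. It was lower at 10 weeks in both Lyve-1- libraries (687 and 724 against 895 CPM, log2 fold change -0.34, SE 0.35) and higher in both Lyve-1+ libraries (450 and 466 against 308 CPM, log2 fold change 0.57, SE 0.36). The interaction of subset and age, which tests that difference, was 0.92 in log2 and did not pass (edgeR adjusted p = 0.976). In edgeR, no gene of the set was called for the interaction (0% of all genes) and 0 of 40 had an unadjusted p under 0.05 (4.59% of all genes). In DESeq2, 0 of the 40 were called (smallest adjusted p 0.326). There 4 had an unadjusted p under 0.05, and the share over all genes was not computed.

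With the subset as a second term, all 13 tubulin genes tested had a log2 fold change below 0 at 10 weeks (median -0.39), beside 6192 of the 13348 genes tested. The 13 include *Tuba1c*, which was picked for its small p in this comparison. In that fit the unadjusted p was under 0.05 for 2 of the 13. None passed adjustment in edgeR with the settings reported, and the calls of *Tuba1c* under other settings are given with that gene. Within the subsets the direction was less uniform: 2 of the 13 were higher at 10 weeks in Lyve-1- and 4 in Lyve-1+. Over all genes tested, 7651 and 6586 were higher. Besides *Tuba1c*, *Tubb2a*, a beta-tubulin, measured 118, 23.5 and 53.8 CPM in Lyve-1- and 193, 121 and 88.3 CPM in Lyve-1+, with a log2 fold change of -1.26. Abundant beta-tubulins moved little: *Tubb5* had a log2 fold change of -0.25 and *Tubb4b* one of -0.12. In the subset comparison, *Tuba1b* was higher in every Lyve-1+ library (91.8, 57.6 and 38.9 CPM against 32.0, 27.2 and 16.3 CPM, log2 fold change 1.32, edgeR adjusted p = 0.386), and it is the gene whose sequence *Tuba1c* shares most.

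**Figure D5:**
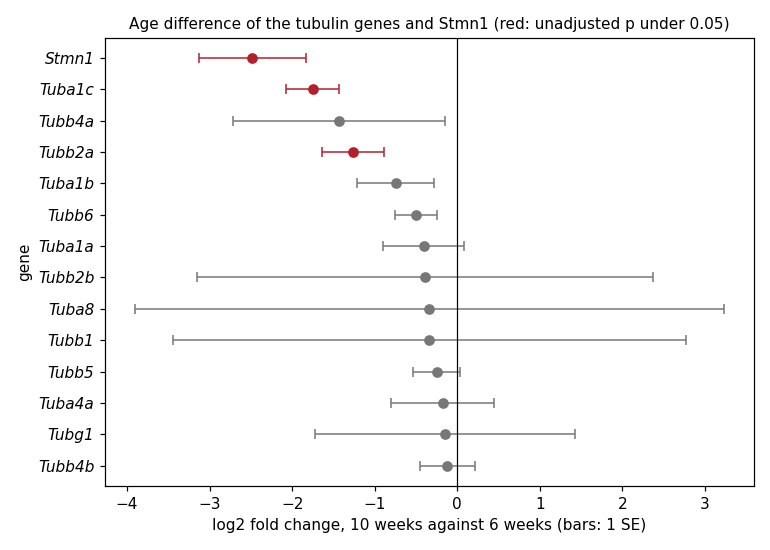
Log2 fold change at 10 weeks against 6 weeks with its standard error for the 13 tubulin genes tested and *Stmn1*, with the subset as a second term. All 14 points lie below 0, and *Stmn1*, *Tuba1c* and *Tubb2a* in red had an unadjusted p under 0.05. *Stmn1* and *Tuba1c* were picked for their small p in this same comparison.

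Further genes of the cell cycle did not pass adjustment in edgeR in either comparison. Of 31 other S phase genes tested, 14 were higher and 17 lower in Lyve-1+, and none had an unadjusted p under 0.05 in either comparison. The smallest p for subset were those of *Prim1*, a primase subunit (1.15 to 21.8 CPM, log2 fold change 2.09, SE 1.17), and *Chaf1b*, a chromatin assembly factor (0 to 24.2 CPM, -2.37, SE 1.44). With 1 library left out, *Prim1* reached 3.55 in the absence of Lyve-1- replicate 3, and *Chaf1b* reached -5.11 in the absence of Lyve-1+ replicate 1. Of 38 other G2 and M phase genes, 14 were higher and 24 lower. *Rangap1*, the GTPase activator of the nuclear transport cycle, was higher in all Lyve-1+ libraries (66.8, 82.5 and 71.7 against 26.6, 24.2 and 49.3 CPM), by 1.15 on the log2 scale (edgeR adjusted p = 0.386). *G2e3*, a ubiquitin ligase, was lower in all of them (7.77, 5.08 and 4.79 against 20.7, 49.2 and 19.0 CPM), at -2.33 on the log2 scale. Its adjusted p was 0.262 in edgeR and 0.0308 in DESeq2.

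Of 28 genes of the G1 cyclins, their kinases and the Rb-E2F pathway, 12 were higher and 16 lower in Lyve-1+. *Ccnd2*, cyclin D2, which couples growth factor signals to the cycle, measured 185, 146 and 154 CPM in Lyve-1- and 66.7, 79.9 and 89.6 CPM in Lyve-1+. Every Lyve-1+ library was lower, with a log2 fold change of -1.04 (SE 0.29) and an adjusted p of 0.189 in edgeR and 0.0303 in DESeq2. *E2f8*, a repressor of the E2F family, was higher in all 10-week libraries (56.1, 25.2, 12.8 and 52.2 CPM) than in both 6-week libraries (10.7 and 6.17 CPM), a log2 difference of 2.15 that did not pass (edgeR adjusted p = 1.00). Of 14 CDK inhibitors and antiproliferative genes tested, 2 were higher and 12 lower in Lyve-1+. *Cdkn1c* (p57), an inhibitor found in quiescent cells, was higher in all Lyve-1+ libraries (13.6, 16.3 and 46.1 against 8.32, 3.73 and 5.69 CPM, log2 fold change 2.10, edgeR adjusted p = 0.454). *Cdkn1a* (p21) overlapped at 233 to 328 CPM in Lyve-1- and 131 to 242 CPM in Lyve-1+, with a log2 fold change of -0.72.

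Of the 8 genes for macrophage growth signals, 4 were higher and 2 lower in Lyve-1+ at an unadjusted p under 0.05, beside 4.2% and 3.5% of all genes, and 0 of the 8 had an adjusted p under 0.05 in edgeR. *Csf2rb*, the shared beta chain of the GM-CSF, IL-3 and IL-5 receptors, measured 1032, 704 and 767 CPM in Lyve-1- and 211, 394 and 442 CPM in Lyve-1+ (log2 fold change -1.26, SE 0.30, edgeR adjusted p = 0.0873). *Maf*, a transcription factor that restrains macrophage self-renewal, measured 242, 233 and 120 CPM in Lyve-1- and 784, 361 and 304 CPM in Lyve-1+ (log2 fold change 1.28, SE 0.38, edgeR adjusted p = 0.233). *Csf2rb* was called with DESeq2, with no filter on low counts and with a replicate block, and *Maf* with the last 2 of these.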

How the data were processed

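The authors sorted the cells, extracted RNA, prepared libraries with a stranded total RNA kit, aligned paired reads to mm10 with HISAT2 2.0.2 and assigned them to genes with featureCounts 1.5.0 of Subread, per the submitters' processing notes. The deposited values are whole-number counts per gene symbol without normalization, and the annotation and strand setting are not given in the sources used here. The methods name a further library removed as an outlier, which is not analysed here.

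Counts were scaled by TMM, and filterByExpr, grouped by subset, left 13348 of 24061 symbols. These were tested with edgeR 4.0.16 (limma 3.58.1, R 4.3.3), with DESeq2 1.42.0 as an alternative. Subset was fitted alone, age with subset as a second term, and age within a subset in a model of 4 groups in which the lone 6-week library was assumed to vary like the 10-week libraries. P-values measure the spread between libraries of a group, which in the subset comparison includes the age difference. The reported tests treat every library as independent, and whether same-numbered libraries shared mice is not given in the sources used here. The tests were tested on simulated data. Of the symbols, 22749 matched GENCODE M21 directly and 914 through a synonym.

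The genes, lists and tests were chosen with earlier results of these data known. All 40 genes could be named. Those in full were *Mki67*, *Top2a*, the highest per length in each role group, the 4 largest log2 fold changes in each direction between subsets, the 4 smallest p in each direction for age, and the smallest p in each direction of each further list. *Cenpf*, *Mcm4*, *Gins2*, *Tubb2a* and others outside this rule were named after their values were seen. Alternatives were other scalings, filters and thresholds, a subtracted background, other model terms and each library left out. Leaving out both libraries with the most olfactory receptor genes detected (Lyve-1- replicate 3 and Lyve-1+ replicate 1) was chosen after seeing the data.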

Additional observations from a re-analysis of the deposited data

Results flagged for a closer look

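One value stood apart from its group. For *Stmn1*, the highest of the 4 libraries at 10 weeks was Lyve-1- replicate 3, at 16.9 CPM, while the other 3 lay between 6.66 and 7.67 CPM. The gap to the nearest of the others was 0.902 of the whole range, above Dixon's limit for 4 samples. Of 21 named genes looked at, this was the 1 so marked, and about 1 in 20 groups would be marked without any real difference.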

How the results depend on the processing

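Over the genes named by the rule above and *Cenpf*, 821 of 849 log2 fold changes under the alternatives kept their direction. The count includes the changed threshold, which reuses the same fit and so could not alter a direction. Many of these genes were picked for a large fold change or a small p. Other genes named in the text, such as *Mcm4*, *Gins2* and *Tubb2a*, are not in this count. Deviations of same-numbered libraries from their subset mean were not positively correlated (-0.15 to -0.0018). These correlations cannot show whether those libraries came from the same mice. With a replicate block, 140 genes were called between subsets in place of 15, 0 of them cell cycle genes, and their median was -0.51, with *Cenpe* at -0.42. The numbers of all genes called ran from 0 to 188 for subset, 0 to 20 for age, 6 to 67 for age within Lyve-1- and 4 to 41 within Lyve-1+, where 0 were called in the latter 3 as reported, and DESeq2 called 5 for the interaction.

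The median of the cell cycle genes stayed below 0 in all alternatives. For subset it ran from -0.94 (without Lyve-1+ replicate 2) to -0.083 (without Lyve-1- replicate 1). For age it ran from -1.20 to -0.28 (without Lyve-1- replicate 1). The value of -1.20 came from leaving out both Lyve-1- replicate 3 and Lyve-1+ replicate 1, chosen after seeing the data. Within Lyve-1+, leaving out 1 library gave medians for age from -2.10 (without replicate 2) to -0.086 (without replicate 3). The count of cell cycle genes called for age was 1 with DESeq2 and 1 with no filter, and 0 to 1 with 1 library left out. Within Lyve-1- it was 1 with DESeq2 and 0 to 1 with 1 library left out. In each of these cases with a count in the age comparison the gene was *Tuba1c*.

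These directions turned, and the cause was not tested. For subset, the 10-week libraries alone gave 0.0030 for *Top2a*, 0.27 for *Bub1b* and 0.22 for *Tuba1c*. With 1 library left out, *Bub1b* ran from -0.55 to 0.17, *Cenpe* from -1.17 to 0.51 and *Tuba1c* from -0.90 to 0.74. For age, leaving out 1 library gave ranges from -0.32 to 0.59 for *Mki67*, -1.04 to 0.25 for *Top2a*, -0.30 to 1.45 for *Bub1b*, -2.58 to 2.38 for *Cdc20*, -0.85 to 1.22 for *Cenpe*, -0.012 to 1.31 for *Cdk1* and -2.18 to 1.49 for *Kif11*. Age as the only term gave -0.048 for *Mki67* and -0.015 for *Cdc20*. Leaving out both libraries with the most olfactory receptor genes detected, chosen after seeing the data, gave 0.46 for *Bub1b* in the subset comparison. For age it gave -0.38 for *Mki67*, -1.41 for *Bub1b*, -10.21 for *Cdc20*, -1.38 for *Cenpe*, -0.13 for *Cenpa* and -0.29 for *Csf1*.

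The biological coefficient of variation between libraries of a subset was 0.931 in the model with subset alone, where it includes the age difference. Few counts lay behind the low genes.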
